A study of Caenorhabditis elegans with 11 samples.

Results

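lsy-6, mir-124 and mir-791 (cel-lsy-6, cel-mir-124 and cel-mir-791 in the deposited table) are microRNA (miRNA) hairpins of Caenorhabditis elegans known from sensory neurons. They were taken by name from a table of 250 hairpins, a rule that uses no measured value, though earlier results of these data were known when they were chosen. The 3 of them are followed here across 4 ages. Small RNA was sequenced from whole hermaphrodites of N2, the standard laboratory strain, aged 1, 5, 10 and 20 days, with 3, 3, 3 and 2 libraries. The groups differed in age alone as far as the labels go, with no mutation or treatment named. The stage from which days were counted, the number of worms per library and whether the worms were kept from bearing progeny are not stated in the labels.

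A miRNA is cut from a hairpin precursor, loaded into an Argonaute protein and guided by its seed, the bases near its 5′ end, to messenger RNAs that it represses. Some miRNAs are made in a handful of cells, where they fix or sharpen the identity of those cells. lsy-6 is such a case: it is made in the left ASE taste neuron, where it represses the homeobox gene cog-1 and so sets apart the left and right taste neurons. mir-124 is an ancient neuronal miRNA, abundant in the vertebrate brain and found in sensory neurons of the worm. mir-791 is made in carbon dioxide-sensing neurons, where it represses akap-1 and cah-3 and tunes the avoidance of carbon dioxide. A library of a whole worm holds all tissues and, in egg-bearing hermaphrodites, embryos, so the neurons that make these miRNAs supply a small part of its RNA.

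The hairpins lie apart from each other in the genome (WBcel235, Ensembl annotation). lsy-6 lies between genes on the plus strand of chromosome V, at 10647232 to 10647304, with its annotated arms at 10647237 to 10647257 (5p, 21 bases) and 10647280 to 10647301 (3p, 22 bases). mir-124 lies on the plus strand of chromosome IV, at 11871738 to 11871833, in an intron of trpa-1, a cation channel gene read from the same strand. An unclassified noncoding RNA gene, C29E6.8, overlaps it on the opposite strand. No source used here says whether the authors' counting used strand, so reads of that RNA could not be told apart from those of mir-124. mir-791 lies between genes on the plus strand of chromosome X, at 5809349 to 5809433. The annotated arms of mir-124 span 23 and 21 bases and those of mir-791 span 23 and 24 bases. Each hairpin has 1 count per library in the table, and a difference may therefore come from the 5p or the 3p arm.

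All 3 hairpins were scarce. Together they held 0.00511% of all counts. Single libraries had 9 to 42 reads of lsy-6, 9 to 28 of mir-124 and 19 to 55 of mir-791, in library totals of 955506 to 1800586. By mean level over the 11 libraries, mir-791 (25.0 CPM, counts brought to a shared library size with TMM factors) ranked 107th, lsy-6 (14.5 CPM) 117th and mir-124 (10.3 CPM) 127th of 145 tested hairpins, whose median was 175 CPM. The tested hairpins are those with enough counts for the test, and all 3 members were among them. mir-791 had the most reads of the 3 in 10 of 11 libraries, and lsy-6 in the other, the third 1-day library. The annotated arms of the 3 hairpins differ in length by a few bases at most, so no division by length was made, but ligation and amplification can differ between sequences. Levels are relative to the other miRNAs of a library, since no spike-in is named in the labels.

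lsy-6 had its highest levels at 1 day and its lowest mean at 20 days. No step among the 3 older ages passed in edgeR's fit with age alone. The 1-day libraries had 36, 32 and 42 reads, or 22.8, 18.8 and 22.4 CPM. The 5-day libraries had 13, 16 and 27 reads, or 7.91, 12.6 and 14.9 CPM, and the 10-day libraries 13, 27 and 15 reads, or 14.4, 17.5 and 11.1 CPM. The 20-day libraries had 11 and 9 reads, or 7.03 and 9.77 CPM. All 3 of the 1-day libraries lay above every library of the older ages, while the 5- and 10-day libraries overlapped each other. Means were 21.3 ± 2.18 CPM at 1 day, 11.8 ± 3.56 at 5 days, 14.3 ± 3.18 at 10 days (SD, n = 3 each) and 8.40 ± 1.94 at 20 days (SD, n = 2). The 4 ages differed by edgeR's quasi-likelihood F-test (adjusted p = 0.00326). In a whole-worm library, fewer cells of a type and less of an RNA per cell cannot be told apart.

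**Figure D1:**
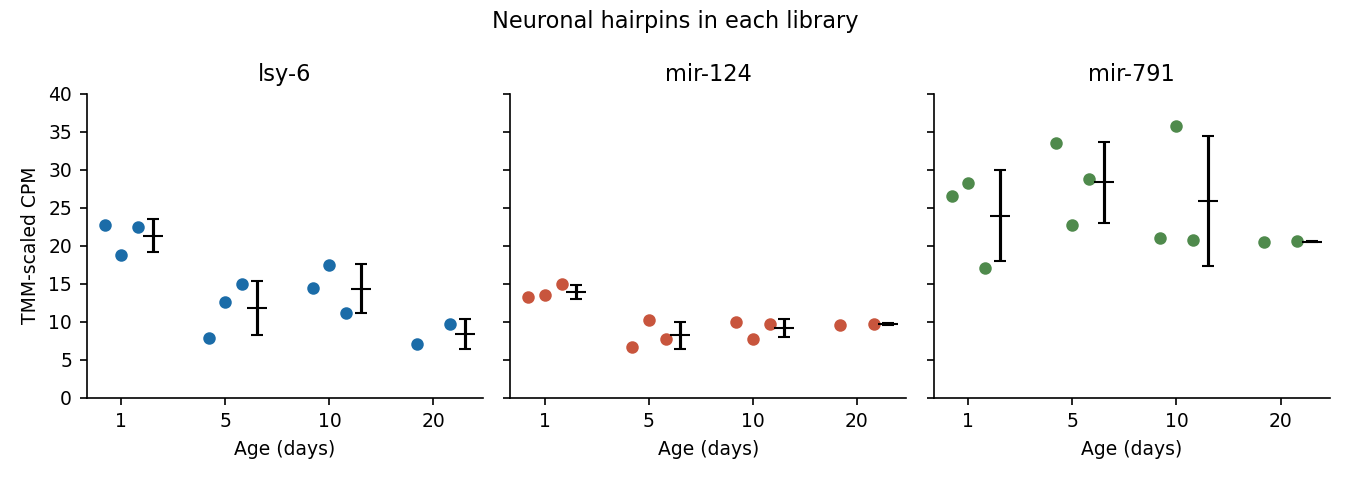
TMM-scaled CPM of lsy-6, mir-124 and mir-791 (vertical axis) by age in days (horizontal axis). Each point is 1 library, and the black marks give the mean ± SD (n = 3, 3, 3 and 2). The 1-day libraries of lsy-6 (18.8 to 22.8 CPM) and mir-124 (13.3 to 14.9 CPM) lie above those of the older ages, and those of mir-791 (17.1 to 28.2 CPM) overlap them.

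Between 1 and 5 days, lsy-6 fell by 0.85 on the log2 scale, with an SE of 0.25 and a 95% interval of -1.37 to -0.32 (edgeR adjusted p = 0.00912). This call was lost with DESeq2 (-0.77, adjusted p = 0.0565) and without replicate 1 of the 5-day group, the library with the lowest level at that age (-0.63, adjusted p = 0.0616). Against 1 day, lsy-6 at 20 days was lower by 2.62-fold, a log2 change of -1.39 ± 0.33 (SE) with an interval of -2.09 to -0.69 (edgeR adjusted p = 0.00109). Without replicate 1 of the 20-day group, which leaves 1 library at that age, the change was -0.99 and no longer passed (adjusted p = 0.107).

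At 10 days the log2 change of lsy-6 against 1 day was -0.56 ± 0.25 (SE), with no overlap between the libraries of both ages, and it did not pass (edgeR adjusted p = 0.0603). It did pass with RLE factors (-0.67, adjusted p = 0.0354), total counts (-0.83, adjusted p = 0.0143), no filter (-0.70, adjusted p = 0.0232) or the fit to both ages alone (-0.69, adjusted p = 0.0185). It also passed when any 1 of 5 libraries was left out (1-day replicate 2, 5-day replicate 1, 10-day replicate 2 and both 20-day libraries), with adjusted p of 0.0323 to 0.0420. From 10 to 20 days the change was -0.83 ± 0.37 (SE), again without overlap (edgeR adjusted p = 0.0717). This step passed only with upper-quartile scaling (-0.99, adjusted p = 0.0363) and without replicate 3 of the 10-day group (adjusted p = 0.0461). The steps from 5 to 10 days (0.29 ± 0.28) and from 5 to 20 days (-0.54 ± 0.37) did not pass, and their libraries overlapped.

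mir-124 also had its highest levels at 1 day, and its libraries of 5, 10 and 20 days overlapped. The 1-day libraries had 21, 23 and 28 reads, or 13.3, 13.5 and 14.9 CPM. The 5-day libraries had 11, 13 and 14 reads, or 6.69, 10.2 and 7.73 CPM, the 10-day libraries 9, 12 and 13 reads, or 9.95, 7.78 and 9.66 CPM, and the 20-day libraries 15 and 9 reads, or 9.59 and 9.77 CPM. Every 1-day library was above every older one. The mean went from 13.9 ± 0.893 CPM at 1 day to 8.21 ± 1.81 at 5 days and 9.13 ± 1.18 at 10 days (SD, n = 3 each), and was 9.68 ± 0.128 at 20 days (SD, n = 2).

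The 4 ages differed for mir-124 by edgeR's F-test, near the threshold (adjusted p = 0.0382). The call was lost with DESeq2 (adjusted p = 0.176) and without a filter (adjusted p = 0.0630). It was also lost with sequencing lane, as read from the descriptions, in the model. The adjusted p was 0.290 with lane as a fixed effect in edgeR and 0.0503 as a random block in limma-voom. The fixed effect leaves 1 residual degree of freedom. The call was lost too without any of 6 single libraries, with adjusted p from 0.0513 to 0.148. Those were replicates 2 and 3 of the 1-day group, 1 and 3 of the 5-day group, and 2 and 3 of the 10-day group. From 1 to 5 days mir-124 fell by 0.78 on the log2 scale (SE 0.26, interval -1.32 to -0.25, edgeR adjusted p = 0.0155). That fall did not pass with DESeq2 (-0.71, adjusted p = 0.110), with the fixed lane term (-1.07, adjusted p = 0.100), without replicate 3 of the 1-day group (-0.73, adjusted p = 0.0588) or without replicate 1 of the 5-day group (-0.68, adjusted p = 0.0624).

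From 1 to 10 days mir-124 fell by 0.63 on the log2 scale (SE 0.26, edgeR adjusted p = 0.0460). The unadjusted edgeR p of 0.0295 was the same without replicate 3 of the 5-day group. It reflects counting error alone, not spread between libraries. The fall no longer passed with upper-quartile scaling, DESeq2 or lane in the model in either form (adjusted p of 0.0547 to 0.485). It was also lost without replicate 3 of the 1-day group (-0.57, adjusted p = 0.115) or replicate 2 (-0.51, adjusted p = 0.190) or 3 (-0.69, adjusted p = 0.0751) of the 10-day group. At 20 days the change against 1 day was -0.53 ± 0.30 (SE), with an interval of -1.15 to 0.10 that includes no change, and it did not pass (edgeR adjusted p = 0.148) other than with total counts (-0.73, adjusted p = 0.0378). Among the 3 older ages the changes were 0.16, 0.26 and 0.10, with SEs of 0.30 to 0.34 and intervals that reached from -0.61 to 0.96. The sign of the steps from 5 to 10 and from 10 to 20 days turned under other scalings, which moved the median of all tested hairpins in the first of these steps from 0.19 with TMM to -0.011 with RLE factors and 0.41 with upper quartiles.

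No pair of ages passed for mir-791 in edgeR's fit with age alone. Its 1-day libraries had 42, 48 and 32 reads, or 26.5, 28.2 and 17.1 CPM, and its 5-day libraries 55, 29 and 52 reads, or 33.5, 22.8 and 28.7 CPM. The 10-day libraries had 19, 55 and 28 reads, or 21.0, 35.7 and 20.8 CPM, and the 20-day libraries 32 and 19 reads, or 20.5 and 20.6 CPM. The lowest and the highest library belonged to the 1-day and the 10-day group, and the ages of 1, 5 and 10 days overlapped. Both 20-day libraries lay below all 5- and 10-day libraries with TMM scaling. Scaled by total counts alone they had 19.4 and 19.9 CPM, above replicates 1 and 3 of the 10-day group (18.4 and 18.1 CPM). Means were 23.9 ± 6.02 CPM at 1 day, 28.3 ± 5.36 at 5 days, 25.8 ± 8.52 at 10 days (SD, n = 3 each) and 20.5 ± 0.121 at 20 days (SD, n = 2).

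The difference among the 4 ages did not pass for mir-791 in edgeR's F-test (adjusted p = 0.419). The change from 1 to 20 days was -0.21 ± 0.30 (SE), with an interval of -0.84 to 0.42. The estimate for lsy-6 (-1.39) lay outside it, but the interval of lsy-6 (-2.09 to -0.69) overlapped it. The change from 1 to 5 days was 0.27 ± 0.24 (SE, adjusted p = 0.372) and that from 5 to 20 days -0.48 ± 0.29 (SE, adjusted p = 0.168). With lane as a fixed term, which leaves 1 residual degree of freedom, the 4 ages differed (adjusted p = 0.0361), the 5-day level was higher than the 1-day level (0.80, adjusted p = 0.0195) and the 20-day level lower than the 5-day level (-0.92, adjusted p = 0.0296). With lane as a random block none of these passed.

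**Figure D2:**
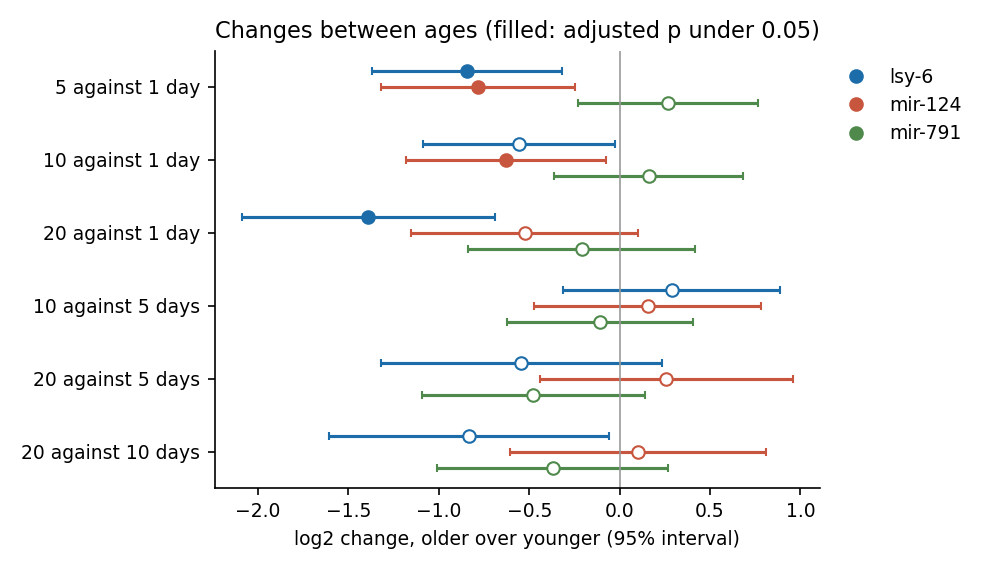
Log2 change of the older over the younger age (horizontal axis) for the 6 pairs of ages and the 3 hairpins, with 95% intervals from edgeR's fit to all 11 libraries. Those of mir-124, and of lsy-6 with 20 days, are narrower than counting error allows. Filled points passed at an adjusted p under 0.05: lsy-6 at 5 and 20 against 1 day and mir-124 at 5 and 10 against 1 day, while no point of mir-791 is filled.

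The calls on these hairpins were set beside those of the whole table. Among the 4 ages 2 of the 3 passed, where 80% of the 145 tested hairpins did. From 1 to 5 days 2 of the 3 passed, both as lower, where 47.6% of all tested hairpins passed and 26.2% passed as lower, and 2 of 3 had no overlap between these ages, against 52.4%. From 1 to 10 days 1 of 3 passed, as lower (64.1% of all passed, 26.9% as lower), and from 1 to 20 days 1 of 3 passed, as lower (62.8% of all passed, 29.7% as lower). The ages did not overlap for 2 of 3 members at 10 against 1 day (68.3% of all) and for 2 of 3 at 20 against 1 day (75.9% of all). Between the older ages they did not overlap for 0 of 3 members at 10 against 5 days (45.5% of all), 1 of 3 at 20 against 5 days (69.7% of all) and 2 of 3 at 20 against 10 days (67.6% of all). These counts use TMM scaling, and mir-791 overlapped at 20 against 10 days with total counts. No member passed for 10 against 5 days (37.2% of all passed), 20 against 5 days (60.7%) or 20 against 10 days (44.8%) in edgeR with TMM scaling and age alone in the model, in DESeq2 or in limma-voom with a random block for lane. At an unadjusted p under 0.05, edgeR gave 0, 0 and 1 of the 3 for these steps. The members' median log2 change was -0.78 at 5 days, -0.56 at 10 days and -0.53 at 20 days against 1 day, beside -0.0024, 0.15 and -0.027 over all tested hairpins. A median of 3 is the value of 1 hairpin, here mir-124 at 5 and 20 days and lsy-6 at 10 days. The change of mir-791 was 0.27 at 5 days and 0.16 at 10 days. The 3 comparisons with 1 day share the 1-day libraries.

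**Figure D3:**
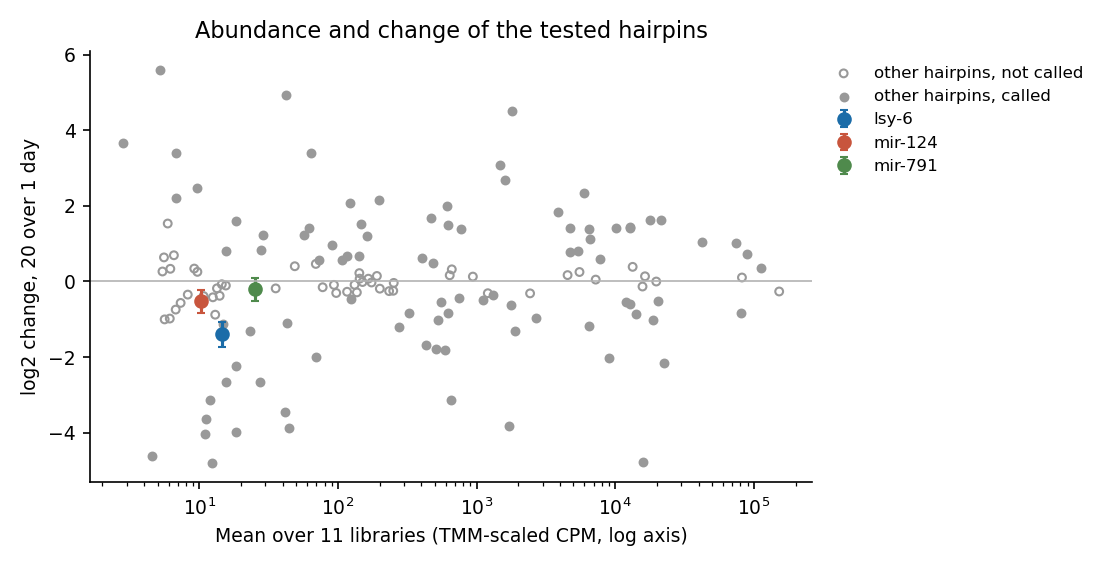
Mean TMM-scaled CPM over 11 libraries (horizontal, log axis) against the log2 change from 1 to 20 days (vertical) of the 145 tested hairpins. Filled grey points passed at an adjusted p under 0.05, and the coloured points with bars (± SE) are lsy-6 (-1.39), mir-124 (-0.53) and mir-791 (-0.21), which lie toward the low end of abundance.

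The reads behind these hairpins set the precision. Counting error alone gives a coefficient of variation of 16.5% for lsy-6 at 1 day and 31.6% at 20 days, of 20.4% to 29.7% for mir-124, and of 14.9% to 19.8% for mir-791. The spread between libraries of 1 age was 10.2% for lsy-6 and 6.42% for mir-124 at 1 day, below what counting alone gives on average. It was above it for lsy-6 at 5 days (30.2% against 23.1%). For mir-791 it was above counting error at 1 day (25.1% against 15.7%), 5 days (18.9% against 14.9%) and 10 days (33.0% against 17.1%). The SEs of the 3 hairpins for 20 against 1 day were 0.30 to 0.33, and the median over all tested hairpins was 0.17. For lsy-6 (110 reads at 1 day and 20 at 20 days) and mir-124 (72 and 24) they were below what counting error alone gives. The intervals printed for these changes are therefore too narrow. This held for every pair of ages of mir-124 and for every pair of lsy-6 with 20 days. The 2 values of mir-124 and of mir-791 at 20 days differ by far less than counting error, so their small SDs do not measure the spread at that age.

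Ratios of 2 hairpins within a library need no scaling between libraries and ask whether the hairpins moved apart. With 0.5 added to each count, the mean log2 ratio of lsy-6 to mir-791 was -0.14 ± 0.49 at 1 day, -1.27 ± 0.67 at 5 days, -0.81 ± 0.25 at 10 days (SD, n = 3 each) and -1.27 ± 0.33 at 20 days (SD, n = 2). In 1 library of 1 day lsy-6 had more reads than mir-791, and in all others it had fewer. A difference among the ages did not pass in an exact permutation test of the F statistic over all 92400 assignments of libraries to ages (p = 0.0562, adjusted p = 0.169 over the 3 ratios). The different courses of lsy-6 and mir-791 against 1 day are therefore not shown to differ from each other.

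The log2 ratio of lsy-6 to mir-124 was 0.60 ± 0.15 at 1 day, 0.48 ± 0.38 at 5 days and 0.61 ± 0.48 at 10 days (SD, n = 3 each), and -0.22 ± 0.30 at 20 days (SD, n = 2). lsy-6 had more reads than mir-124 in all 9 libraries of 1 to 10 days. At 20 days it had fewer in 1 library (11 against 15) and as many in the other (9 and 9). The exact permutation test did not pass (p = 0.132, adjusted p = 0.198). The log2 ratio of mir-791 to mir-124 was 0.74 ± 0.48 at 1 day, 1.75 ± 0.58 at 5 days, 1.42 ± 0.63 at 10 days (SD, n = 3 each) and 1.05 ± 0.022 at 20 days (SD, n = 2; exact permutation p = 0.204, adjusted p = 0.204).

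**Figure D4:**
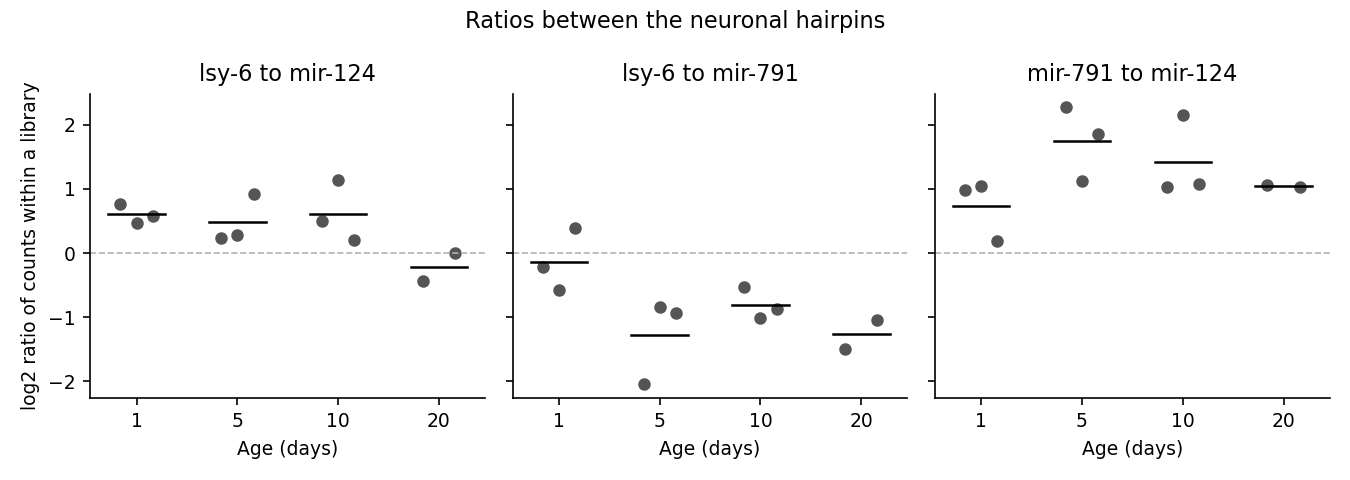
Log2 ratio of the counts of 2 hairpins in the same library (vertical axis, 0.5 added to each count) by age in days. Points are libraries, black bars are means and the dashed line marks equal counts. lsy-6 lies above mir-124 in every library of 1 to 10 days and at or below it in the 20-day libraries.

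Some libraries of different ages share the number after the letter L in their descriptions, read here as a sequencing lane. In lane 1, lsy-6 had 36 reads at 1 day and 9 at 20 days (log2 ratio of CPM -1.22), mir-124 had 21 and 9 (-0.44) and mir-791 had 42 and 19 (-0.36). In lane 3, from 1 to 5 days, the log2 ratios were -1.50 for lsy-6, -1.16 for mir-124 and 0.97 for mir-791. In both lanes the direction was that of the fits over all libraries, with 1 library per age and so no test. Those fits include these libraries. For lsy-6 and mir-124 the direction could not have differed, since every 1-day library lay above every older one. In lane 5, from 5 to 10 days, the ratios were -0.052, 0.37 and -0.45, and in lane 7, from 10 to 20 days, -0.66, -0.011 and -0.024, in the same order of hairpins. In these lanes the value of lsy-6 from 5 to 10 days and that of mir-124 from 10 to 20 days had the opposite sign to the fits over all libraries (0.29 and 0.10).

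Other hairpins reported in neurons were followed for comparison: mir-2, mir-71, mir-234, mir-242, mir-790, mir-273 and mir-137. mir-273 had no read in any library and no counted hairpin bore the name mir-137, so 5 of the 7 were tested. From 1 to 5 days none of the 5 fell and 1 rose: mir-71, which acts in AWC olfactory neurons and in lifespan, rose by 0.44 (edgeR adjusted p = 0.00361). From 1 to 20 days 1 rose and 1 fell. mir-2 rose by 0.50, from 430 ± 22.7 (SD, n = 3) to 606 ± 9.72 CPM (SD, n = 2; edgeR adjusted p = 0.00653). mir-71 had a log2 change of -1.18, from 6270 ± 209 to 2777 ± 56.5 CPM (edgeR adjusted p = 2.82e-07). The means of mir-71 at 5 and 10 days were above its 1-day mean, whereas the means of lsy-6 and mir-124 were lower at both ages.

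The remaining 3 were mir-790, mir-234 and mir-242. mir-790 had means of 179 to 207 CPM, and a difference among the ages did not pass (edgeR adjusted p = 0.403). mir-234 had log2 changes of 0.27 at 5 days, 0.38 at 10 days and -0.27 at 20 days against 1 day, none of which passed, and it fell by 0.66 from 10 to 20 days (edgeR adjusted p = 0.0119). mir-242 rose from 1 to 10 days by 0.52 (edgeR adjusted p = 0.00228). The median log2 change of the 5 from 1 to 20 days was 0.15, beside -0.027 over all tested hairpins. Calls among the hairpins reported in neurons thus ran in both directions. Mean levels of the 5 were 116 (mir-234) to 6456 CPM (mir-71), above those of the members. In a whole-worm library their reads cannot be assigned to neurons.

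**Figure D5:**
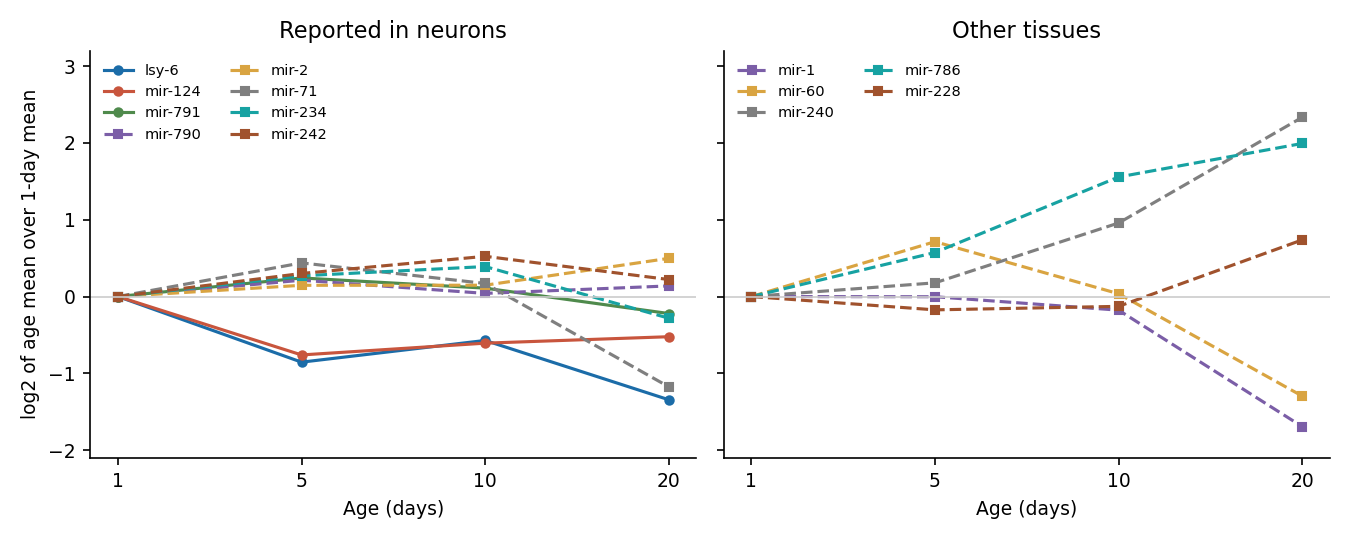
Log2 of the mean TMM-scaled CPM at each age over the 1-day mean (vertical axis) by age in days, evenly spaced, for hairpins reported in neurons (left; solid lines are lsy-6, mir-124 and mir-791) and for muscle (mir-1), intestine (mir-60, mir-240, mir-786) and glia (mir-228) hairpins (right). lsy-6 and mir-124 are the lines below 0 at 5 and 10 days on the left.

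Hairpins of other tissues moved over the same ages, and their part in the values above was not tested. They are named for the tissues they served to mark, and the tissue source of their reads was not tested. The muscle hairpin mir-1 had 510 ± 64.3 CPM at 1 day, 509 ± 149 at 5 days and 451 ± 82.9 at 10 days (SD, n = 3 each), and 158 ± 24.8 at 20 days (SD, n = 2). At 5 days, when lsy-6 and mir-124 were lower, mir-1 (log2 change -0.0024, edgeR adjusted p = 0.990) and the glial mir-228 (-0.17, edgeR adjusted p = 0.295) did not pass. At that age the intestinal mir-60 and mir-786 rose by 0.71 and 0.57 (edgeR adjusted p = 6.41e-04 and 0.00237), and mir-35 and mir-36, 2 of the 8 hairpins of the embryonic mir-35 family, rose by 0.62 and 0.57. At 20 days mir-228 rose by 0.74 against 1 day (edgeR adjusted p = 1.81e-04). Of the intestinal hairpins, mir-60 went from 1754 ± 215 (n = 3) to 714 ± 143 CPM (n = 2) between 1 and 20 days (SD), while mir-240 and mir-786 rose by 2.33 and 1.99. The 20-day libraries of mir-240 lay far apart, at 10355 and 19484 CPM. The 8 hairpins of the embryonic mir-35 family together held 17.4% to 21.4% of counts at 1 day, 19.0% to 21.1% at 5 days, 24.1% to 25.7% at 10 days and 27.8% to 30.2% at 20 days. All 8 of them rose from 1 to 20 days, with a median log2 change of 1.51.

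Among all tested hairpins, those with the most similar age course were sought by the root-mean-square difference of log2 mean CPM at the 4 ages, each course centred on its mean. The nearest to lsy-6 were mir-65, mir-1829b and mir-81, at 0.18, 0.18 and 0.19, where the median hairpin lay at 0.65. mir-65 went from 18774 CPM at 1 day to 11947 at 5 days, 14231 at 10 days and 10383 at 20 days. Its order of ages is that of lsy-6, which follows from its being picked for a like course. The step of lsy-6 from 5 to 10 days did not itself pass. The nearest to mir-124 were mir-50, mir-55 and mir-74, at 0.095, 0.098 and 0.14 (median hairpin 0.55). mir-50 had 939 CPM at 1 day and 661, 696 and 692 CPM at the later ages. The nearest to mir-791 were mir-244, mir-253 and mir-5592-2, at 0.066, 0.097 and 0.12 (median hairpin 0.47). mir-253 went from 128 CPM at 1 day to 177 at 5 days, 163 at 10 days and 126 at 20 days. Between the members themselves the distances were 0.35 for lsy-6 and mir-124, 0.45 for lsy-6 and mir-791 and 0.38 for mir-124 and mir-791. The distances of the nearest hairpins were below the smallest SE of a member's change between 2 ages (0.24). Which hairpin is nearest is therefore uncertain.

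The annotated miRNA gene nearest to mir-791, mir-230, lies 5359 bases upstream on the same strand (X, 5803892 to 5803989), a neighbour chosen for its place with its values known. mir-230 had 1290 ± 53.9 CPM at 1 day, 466 ± 59.4 at 5 days and 177 ± 53.0 at 10 days (SD, n = 3 each), and 365 ± 95.2 at 20 days (SD, n = 2). Over the same ages the means of mir-791 stayed between 20.5 and 28.3 CPM. lsy-6 and mir-124 have no annotated miRNA gene within 108106 and 149571 bases.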

How the data were processed

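Per the labels' protocols, the TruSeq small RNA kit was used on total RNA of whole worms. Each deposited value is a whole-number count of reads for 1 hairpin name, not normalized by the authors. The submitters' processing notes name Trimmomatic 0.36 and BWA 0.7.12-r1039, besides SAMtools 1.3.1-9 and CASAVA 1.8.4. How reads with several matches were counted, and against which reference or genome build, is not stated there. Samples were grouped by labelled age, and replicate numbers only name libraries. The labels do not say whether replicates were separate cultures, so library-to-library spread behind the p-values may be technical. Between 2 ages, edgeR's p for mir-124 was mostly larger than its F gives. At 20 against 1 day the unadjusted edgeR p stayed at 0.1075 without 10-day replicate 2 or 3. Such a p reflects counting error alone, not spread between libraries. All 10 same-age pairs differed by more than counting noise in a chi-square test.

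Hairpins passing edgeR's filterByExpr (minimum count 10, minimum total count 15), 145 of 250, were scaled by TMM and tested in R 4.3.3 with edgeR 4.0.16's quasi-likelihood F-test in a single model of the 11 libraries with age as the factor. Adjusted p are Benjamini-Hochberg values over 145 hairpins, with a threshold of 0.05. Log2 changes used a prior count of 0.125, and SEs came from dividing the unshrunk change by the root of F, with 95% intervals from the fit's degrees of freedom. These SEs and intervals have no floor at counting error, unlike the p-values. The edgeR test was tried on simulated counts, and the permutation test on simulated normal values rather than counts. Alternatives were other scalings and filters, DESeq2 1.42.0, robust edgeR, lane terms (a random block in limma-voom, limma 3.58.1), fits to 2 ages and each library left out. Named hairpins are the 3 members, the 3 nearest age courses of each, and a list of 7 other neuronal hairpins. Hairpins sharing a member's seed were part of the rule, but no mature sequence was used here and none is named. Muscle, intestine, glia and embryo hairpins served as markers. The members and lists were chosen with earlier results of these data known. Of the hairpin names, 245 had 1 gene of that name in Ensembl release 115.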

Additional observations from a re-analysis of the deposited data

How the results depend on the processing

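For lsy-6, the call among the 4 ages held under every alternative that gave a value, with adjusted p of 0.00215 to 0.0353 over the 11 fits without 1 library. For mir-124 the adjusted p was 0.0630 without a filter, 0.176 with DESeq2, 0.290 with lane as a fixed term and 0.0503 with lane as a random block in limma-voom, and 0.0168 to 0.148 without 1 library. For mir-791 it was 0.0361 with lane as a fixed term and 0.241 to 0.791 without 1 library. The cause was not tested. A minimum mean of 50 CPM removed all 3 hairpins and gave no value for them.

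Log2 changes that turned in sign lay between -0.18 and 0.094, and none had passed. For mir-124 at 10 against 5 days they were -0.035 with RLE factors, -0.037 with total counts, -0.024 without a filter, -0.038 with DESeq2, -0.054 in the fit to both ages alone, and -0.055 to 0.28 without 1 library. For mir-124 at 20 against 10 days they were -0.057 with upper quartiles and -0.018 to 0.40 without 1 library. For mir-791 they were -0.11 at 10 against 1 day with total counts (-0.18 to 0.32 without 1 library) and 0.094 at 10 against 5 days with upper quartiles (-0.45 to 0.050 without 1 library), and -0.42 to 0.031 at 20 against 1 day without 1 library.

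Of the other values between 2 ages, 314 kept their direction and side of the threshold, 14 lost a call and 14 gained one. The counts of all hairpins called stayed within 1.5 times in all 140 alternatives, and no ratio passed in any of 36. No paired analysis was possible because replicate numbers carry no pairing in the labels. With 9 to 55 reads per library and hairpin, depth limits what can be seen.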
